A study of Mus musculus with 6 samples.

Results

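CC chemokine ligands are small secreted proteins, and 10 of their genes that are known in myeloid cells were followed here, chosen by gene symbol among the 34745 genes of the count table: Ccl2, Ccl3, Ccl4, Ccl6, Ccl7, Ccl9, Ccl12, Ccl17, Ccl22 and Ccl24. These 10 genes were chosen with earlier results of these data known. RNA of monocytic myeloid-derived suppressor cells (M-MDSCs) was sequenced in bulk, with 3 libraries labelled mTOR-/- and 3 labelled WT, all from C57BL/6 mice. The cells were induced from bone marrow with GM-CSF and IL-6 and sorted, so both groups had the same cytokines. The mTOR-/- cells came from a cross of Lyz-Cre with mTOR flox/flox animals, in which the myeloid lysozyme promoter drives the recombinase, and the WT mice were bought and are not stated to carry Lyz-Cre. The study's methods give the mice of each genotype with an n equal to the number of libraries and describe analyses as repeated independently, but no label ties a library to a mouse or culture. The p-values measure the spread between these libraries, which may be technical. Age and sex of the mice are not given in the sources used here.

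Chemokines guide leukocytes by binding receptors on their surface, and the CC class is named for a pair of adjacent cysteines near the start of the mature protein. Ccl2, Ccl7 and Ccl12 attract monocytes through Ccr2, Ccl3 and Ccl4 draw monocytes and T cells, Ccl6 and Ccl9 act through Ccr1, Ccl17 and Ccl22 bind Ccr4 on T cells, and Ccl24 binds Ccr3 on eosinophils. Myeloid cells are a known source of many of these ligands, and their transcription is known to respond to inflammatory signals such as NF-kB activation and, for Ccl17, Ccl22 and Ccl24, to IL-4 signalling.

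Because the adjacent cysteines define the class, the coding sequence around their codons is shown for the ligands whose values are described in most detail, as annotated in GENCODE M21 on GRCm38 and written 5′ to 3′, with the codon pair in capitals. The windows lie on the forward strand in exon 2 of 3, at chr11:82036485-82036529 for Ccl2, chr11:83663461-83663505 for Ccl4, chr8:94811191-94811235 for Ccl17 and chr8:94746913-94746957 for Ccl22. The Ccl7 window, between 82045859 and 82046561 on chromosome 11, is spliced across an intron.
Ccl2: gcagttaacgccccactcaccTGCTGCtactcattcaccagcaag
Ccl7: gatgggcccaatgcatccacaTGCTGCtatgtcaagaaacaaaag
Ccl4: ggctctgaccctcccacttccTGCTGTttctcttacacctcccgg
Ccl17: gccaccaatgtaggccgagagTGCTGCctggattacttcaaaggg
Ccl22: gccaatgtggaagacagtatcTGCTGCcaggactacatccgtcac
Of these 5 genes, Ccl4 used a different second cysteine codon from the others. Over whole coding sequences, identity was highest between Ccl3 and Ccl4 at 70.1%, followed by Ccl6 and Ccl9 at 66.7% and Ccl7 and Ccl12 at 63.9%. Ccl17 and Ccl22 were 54.8% identical, rank 11 of 45 pairs. Of the 50-base stretches of their transcripts, 1.97% were shared with another gene for Ccl9 and 0% for the other members, a measure of how far reads could be split between genes.

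The libraries held between 12317507 and 14768126 counts. Within groups, log2 CPM (counts scaled to 1e6 per library) correlated between libraries at 0.978 to 0.981 in WT and 0.952 to 0.973 in mTOR-/-, where the pairs with replicate 3 were lowest. Mtor counts were 883, 983 and 908 for mTOR-/- and 980, 875 and 929 for WT, a log2 fold change of 0.15 (SE 0.11, edgeR adjusted p = 0.442), so whole-gene counts did not separate the labels. Counts over the whole gene include exons outside a floxed part and cannot check the deletion, and every direction given here is between the libraries as labelled. The paper states that the loss of mTOR in MDSCs was verified, with data other than these counts. Lyz2, the lysozyme gene, was 3.205-fold lower in mTOR-/- (edgeR adjusted p = 0.00255). The mTOR-/- cells came from Lyz-Cre animals, and the part of the Cre allele in the Lyz2 value was not tested. Of the sort markers, Itgam (CD11b) had 8376 to 13440 counts in mTOR-/- and 12235 to 13914 in WT. Ly6c2 was lower in mTOR-/- (log2 fold change -0.999, edgeR adjusted p = 0.0426), while Ly6c1 did not pass (log2 fold change 0.28, edgeR adjusted p = 0.535). Ly6g was higher in mTOR-/- (log2 fold change 2.27, edgeR adjusted p = 0.0365). The marker lists of these genes were mixed, with log2 fold changes given in brackets. Of 8 monocyte markers, Csf1r (0.49), Cd14 (0.95) and F13a1 (1.12) passed the edgeR adjusted p as higher and Ly6c2 as lower. Of 10 granulocyte markers, Ly6g and S100a8 (0.62) passed as higher and Ltf (-2.04) and Ngp (-0.56) as lower. In bulk RNA, fewer cells of a type and less RNA per cell cannot be told apart.

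Of the 10 ligands, 9 passed the filter on low counts and were tested, and Ccl12 had 0 counts in all 6 libraries. Ccl2 and Ccl7 passed an adjusted p of 0.05 with at least a 2-fold change and were lower in mTOR-/- libraries, 2 of 9 members, while 0.654% of the 12537 genes tested were called lower. No member was called higher, where 1.04% of all genes tested were. By the adjusted p alone, 3 members were lower (1.87% of all genes) and 0 were higher (2.18% of all genes), the third being Ccl4. The CPM of the groups did not overlap for 4 members that were lower in mTOR-/-, which are Ccl2, Ccl3, Ccl4 and Ccl7 (13.9% of all genes), and for 2 that were higher, Ccl17 and Ccl22 (14.5% of all genes). Of the 9 log2 fold changes, 6 were below 0 and 3 above, with a median of -0.19, beside a median of 0.005 over all genes tested.

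**Figure D1:**
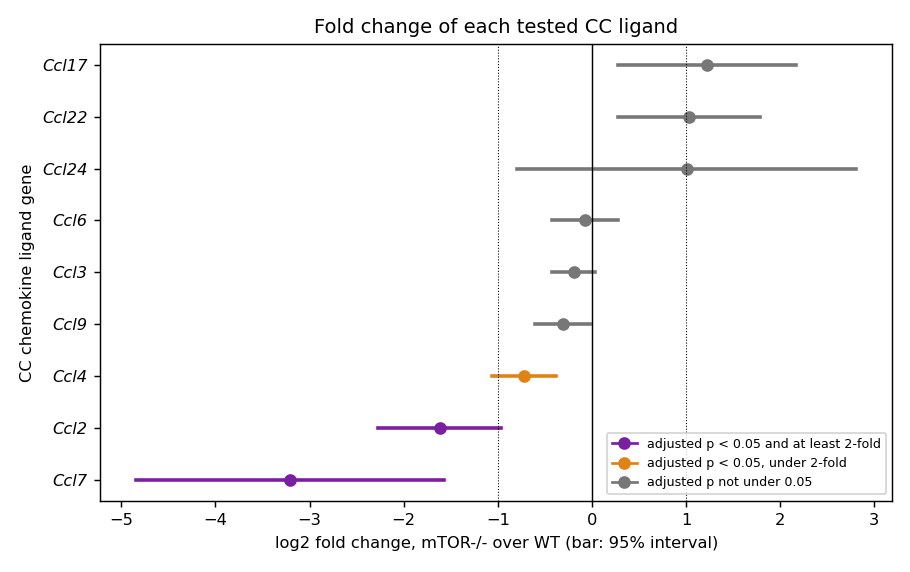
Log2 fold change of mTOR-/- over WT for each of the 9 tested CC ligands, with points for the estimate of edgeR and bars for the 95% interval, and dotted lines at a 2-fold change. Ccl7 and Ccl2 lie furthest to the left at -3.21 and -1.62, and the intervals of Ccl17 and Ccl22 lie to the right of 0 although their adjusted p-values missed 0.05.

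Ccl2, the monocyte chemoattractant protein that draws monocytes out of the bone marrow, lies at chr11:82035571-82037453 on GRCm38 (ENSMUSG00000035385). Its counts were 57, 30 and 52 for mTOR-/- and 153, 148 and 177 for WT, or 3.65 ± 1.20 and 11.2 ± 1.28 CPM (SD, n = 3 each). All 3 WT libraries were well above all 3 mTOR-/- libraries. Ccl2 was 3.07-fold lower in mTOR-/-, a log2 fold change of -1.62 (SE 0.29, 95% interval -2.27 to -0.96, edgeR quasi-likelihood test, adjusted p = 0.0176). The only gene overlapping it, Gm17268 on the opposite strand, had 0 counts in every library.

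Ccl7, another monocyte chemoattractant, starts 8258 bases beyond the end of Ccl2, at chr11:82045712-82047525 (ENSMUSG00000035373). It was scarce, with 2, 1 and 5 counts in mTOR-/- and 17, 37 and 32 in WT. The highest mTOR-/- library was below the lowest WT library. The log2 fold change was -3.21 (SE 0.73, 95% interval -4.84 to -1.58, edgeR adjusted p = 0.0399). Since these are few counts, the pooled ratio is given too: 8 counts in mTOR-/- against 86 in WT made a WT level 9.63 times that of mTOR-/-, with an exact interval of 4.675 to 23.0 that covers counting error only. Ccl12, the third gene of this group at chr11:82101845-82103400 (ENSMUSG00000035352), was listed at 0 throughout, and a count of 0 allows up to 3 counts, or 0.2049 to 0.2445 CPM depending on the library. A difference in Ccl12 was not detectable at this depth.

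The receptor of these ligands, Ccr2, had 188, 156 and 199 counts in mTOR-/- and 95, 177 and 117 in WT. The groups overlapped in CPM, and the log2 fold change of 0.65 (SE 0.25) did not pass (edgeR adjusted p = 0.174). Summed levels of mast cell and basophil markers also separated the groups. They were 420.7 to 474.1 CPM in mTOR-/- and 1240 to 1308 CPM in WT. Cpa3 alone held 110.8 to 153.7 CPM of these sums in mTOR-/- and 631.9 to 769.1 CPM in WT. Of 8 markers 7 were tested and 4 passed the adjusted p, all lower, with Cpa3, Mcpt8 and Kit called. Of the tested markers that did not pass, Tpsb2 (log2 fold change -2.05) and Ms4a2 (-0.65) lay below 0 and Fcer1a (0.45) above. Mcpt4, which marks connective tissue mast cells, was at 0 in every library. Other lists had summed levels that were lower in mTOR-/- without overlap, though not every marker in them was lower. Macrophage markers summed to 630.7 to 812.3 CPM against 861.2 to 977.4 in WT, with 0 of 5 tested markers passing, and eosinophil markers to 45.6 to 72.5 CPM against 99.1 to 115.6, with Prg2 called lower (log2 fold change -1.09, edgeR adjusted p = 0.00899). Stromal and endothelial markers summed to 152.4 to 196.1 CPM against 238.6 to 261.4, and erythroid markers to 1.07 to 1.39 CPM against 3.34 to 6.27. Of the 5 tested macrophage markers, 2 had log2 fold changes below 0 and 3 above, and Adgre1 and Cd68 made up most of the macrophage sum. Pecam1 alone held 116.4 to 163.4 CPM of the stromal and endothelial sum in mTOR-/- and 208.1 to 227.8 CPM in WT. The part of any of these cells in the Ccl2 and Ccl7 values was not tested.

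Ccl4 (MIP-1 beta), an inflammatory chemoattractant, lies at chr11:83662584-83664683 (ENSMUSG00000018930). It had 590, 469 and 452 counts in mTOR-/- and 852, 921 and 1019 in WT, or 39.6 ± 7.37 and 65.4 ± 6.37 CPM (SD, n = 3 each). The groups did not overlap. Ccl4 was 1.65-fold lower in mTOR-/-, a log2 fold change of -0.72 (SE 0.15, 95% interval -1.06 to -0.38, edgeR adjusted p = 0.0324), which passed the adjusted p but not the 2-fold threshold. With the replicate number as a block, the edgeR adjusted p of Ccl4 was 0.0632.

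Ccl3 (MIP-1 alpha), a ligand of Ccr1, lies 13228 bases from Ccl4, at chr11:83647844-83649355 on the reverse strand (ENSMUSG00000000982). It had 7271, 6214 and 7069 counts in mTOR-/- and 8825, 8761 and 8674 in WT. No library overlapped in CPM (537.7 ± 56.5 against 614.5 ± 14.7, SD, n = 3 each), yet the difference was small, with a log2 fold change of -0.19 (SE 0.10, 95% interval -0.42 to 0.03, edgeR adjusted p = 0.306). Ccl3 was 10.62, 11.4 and 13.5 times Ccl4 per kilobase of transcript in mTOR-/- and 8.93, 8.20 and 7.33 times in WT. This ratio, chosen after its values were seen, did not overlap between groups.

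Ccl9 and Ccl6, both ligands of Ccr1, are neighbours at chr11:83572919-83578636 and chr11:83587882-83593087 (ENSMUSG00000019122 and ENSMUSG00000018927). Ccl9 had 18651, 16987 and 15627 counts in mTOR-/- and 20326, 27223 and 23768 in WT, with a log2 fold change of -0.31 (SE 0.13, 95% interval -0.61 to -0.02, edgeR adjusted p = 0.216). Ccl6 had 40738, 30458 and 33969 counts in mTOR-/- and 34491, 45518 and 43951 in WT, with a log2 fold change of -0.07 (SE 0.16, 95% interval -0.42 to 0.28, adjusted p = 0.834). Both genes overlapped between groups in CPM, and the Ccl6 interval leaves no room for a 2-fold change in either direction. E230016K23Rik, which overlaps Ccl6 on the opposite strand, had 749 to 1581 counts per library, and whether the counting used strand is not given in the sources used here. The receptor Ccr1 had a log2 fold change of 0.02 (SE 0.10, 95% interval -0.19 to 0.24, edgeR adjusted p = 0.911).

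Ccl17 and Ccl22, which recruit Ccr4-bearing T cells and are known products of dendritic cells, lie 58753 bases apart on chromosome 8, at chr8:94810453-94812035 and chr8:94745590-94751699 (ENSMUSG00000031780 and ENSMUSG00000031779). Ccl17 had 276, 205 and 270 counts in mTOR-/- and 42, 132 and 187 in WT. Ccl22 had 4599, 4793 and 4243 counts in mTOR-/- and 1061, 2985 and 3434 in WT. Every mTOR-/- library was above every WT library for both genes, and WT replicate 1 was far below the other WT libraries for both.

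The log2 fold change of Ccl17 was 1.22 (SE 0.42, 95% interval 0.27 to 2.16), and it did not pass with edgeR (adjusted p = 0.142), while DESeq2's test gave an adjusted p of 0.0369. That of Ccl22 was 1.03 (SE 0.34, 95% interval 0.28 to 1.78, edgeR adjusted p = 0.126). Without WT replicate 1, the log2 fold changes were 0.81 for Ccl17 and 0.66 for Ccl22, with edgeR adjusted p-values of 0.188 and 0.0541. Their receptor Ccr4 had 65, 49 and 34 counts in mTOR-/- and 6, 22 and 27 in WT, a log2 fold change of 1.59 (SE 0.57, edgeR adjusted p = 0.156), and its WT replicate 1 was again the lowest library.

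Summed levels of dendritic cell markers moved with these genes. They were 532.3 to 666.4 CPM in mTOR-/- and 131.7 to 294.3 CPM in WT, with WT replicate 1 lowest at 131.7. H2-Aa, H2-Ab1 and Itgax made up most of these sums. H2-Aa held 169.4 to 217.2 CPM in mTOR-/- and 22.96 to 76.14 CPM in WT. H2-Ab1 held 158.2 to 176.1 CPM in mTOR-/- and 39.59 to 71.29 CPM in WT, and Itgax 128 to 196.6 and 51.96 to 116.9 CPM. Of 10 markers 7 were tested and 4 were called higher in mTOR-/-, namely Ciita, H2-Ab1, H2-Aa and Ccr7. Itgax (log2 fold change 0.93), Zbtb46 (0.81) and Flt3 (-0.46) did not pass, and Flt3 lay on the other side of 0. Xcr1, Siglech and Cd209a were too low to test, and Siglech, a marker of plasmacytoid dendritic cells, was at 0 in every library. The part of dendritic cells in the Ccl17 and Ccl22 values was not tested.

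Since Ccl17 and Ccl22 were both higher in every mTOR-/- library, the 250 bases before their start sites in RefSeq on GRCm38.p6 are shown, forward strand, at chr8:94810203-94810452 and chr8:94745434-94745683, with motif matches in capitals. The Ccl17 window ends just before the gene start given above, whereas the Ccl22 window reaches past its gene start at 94745590.
Ccl17: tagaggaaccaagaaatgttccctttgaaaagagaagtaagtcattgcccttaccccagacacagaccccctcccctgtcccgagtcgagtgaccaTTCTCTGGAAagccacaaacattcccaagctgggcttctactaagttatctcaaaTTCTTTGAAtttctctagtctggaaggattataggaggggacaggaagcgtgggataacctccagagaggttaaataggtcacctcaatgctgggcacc
Ccl22: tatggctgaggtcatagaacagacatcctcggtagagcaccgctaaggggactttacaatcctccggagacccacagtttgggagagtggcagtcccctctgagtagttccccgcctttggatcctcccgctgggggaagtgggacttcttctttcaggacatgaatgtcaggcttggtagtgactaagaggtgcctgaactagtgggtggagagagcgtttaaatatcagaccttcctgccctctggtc
The promoter window, which runs to 50 bases after the start, was searched on both strands for the STAT motif TTCNNNGAA, the STAT6 motif, which has the same ends with a spacer 1 base longer, the AP-1 motif TGANTCA and the kappa-B motif. Ccl17 held a STAT match from -99 to -91 and a STAT6 match from -154 to -145, which do not overlap, and Ccl22 held none of the 4. Among 32851 promoters of the same length, 8.30% held the STAT motif and 6.95% the STAT6 motif. Of the other members in the table, Ccl9 held a kappa-B match from -35 to -26 (4.51% of promoters) and an AP-1 match from -53 to -47 (7.81%), and Ccl3, Ccl6 and Ccl12 held none. Ccl2, Ccl4, Ccl7 and Ccl24 had no entry. A match is a description of the letters and not of a bound site.

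Ccl24 (eotaxin-2), an eosinophil chemoattractant, lies at chr5:135569937-135573049 on the reverse strand (ENSMUSG00000004814). It had 9, 10 and 32 counts in mTOR-/- and 2, 15 and 11 in WT. The groups overlapped and mTOR-/- replicate 3 was the highest library. The log2 fold change of 1.01 had a wide interval of -0.79 to 2.81 (SE 0.80, edgeR adjusted p = 0.501), and it was 0.20 without mTOR-/- replicate 3. Its receptor Ccr3 was also scarce, with 6 to 25 counts per library and a log2 fold change of 0.08 (SE 0.69, edgeR adjusted p = 0.966).

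**Figure D2:**
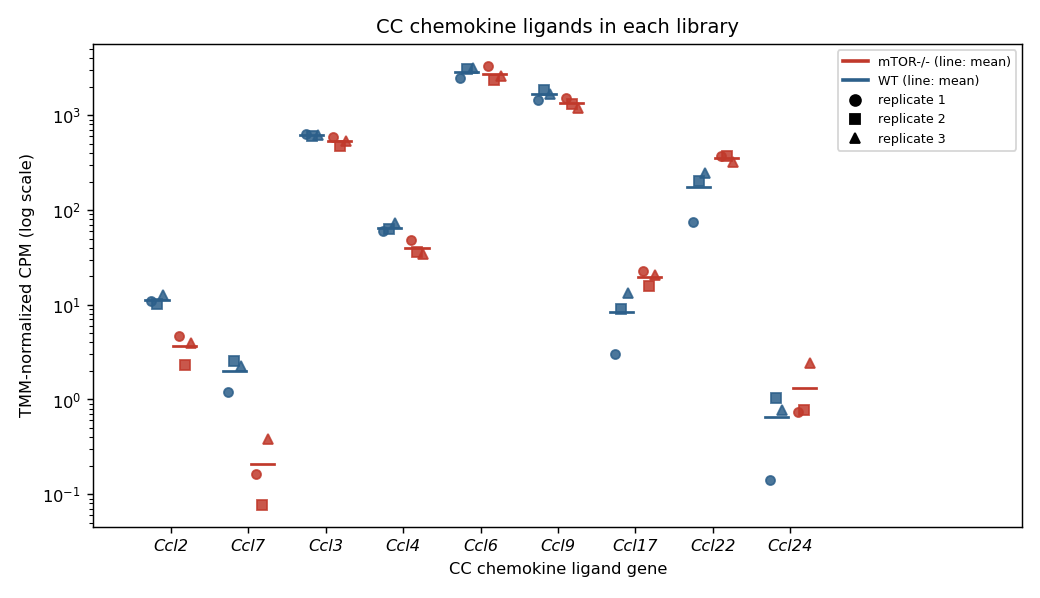
TMM-normalized CPM on a log scale for the 9 CC ligands with counts, with 1 point per library and a line at each group's mean of 3 libraries. The groups separate downward in mTOR-/- for Ccl2, Ccl7, Ccl3 and Ccl4 and upward for Ccl17 and Ccl22, where WT replicate 1 (circle) is the lowest library.

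To compare levels between genes, CPM was divided by the length of the coding transcript in kilobases. Ccl6 was the most abundant ligand in both groups, at 1914 ± 350 CPM per kilobase in mTOR-/- and 2012 ± 268 in WT (SD, n = 3 each). Ccl3 followed at 702 ± 73.8 and 802 ± 19.2, and Ccl9 at 447 ± 54.7 and 554 ± 69.4. These 3 genes made up 91.3% to 92.5% of the members' summed level per kilobase in mTOR-/- libraries and 93.0% to 95.3% in WT.

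The next places differed in order between the groups. In mTOR-/- Ccl22 came after Ccl9 at 161 ± 12.5 CPM per kilobase, ahead of Ccl4 at 60.0 ± 11.2, and in WT Ccl4 came after Ccl9 at 99.0 ± 9.65, with Ccl22 at 78.8 ± 39.9 overlapping it. Ccl22 was 2.32, 3.04 and 2.80 times Ccl4 per kilobase in the mTOR-/- libraries and 0.371, 0.965 and 1.00 times in WT, a ratio also chosen after its values were seen. Ccl17 was next at 38.3 ± 6.70 in mTOR-/- and 16.4 ± 10.1 in WT, where it overlapped Ccl2 at 13.8 ± 1.57. Ccl2 in mTOR-/- was at 4.49 ± 1.48, and Ccl24 and Ccl7 were lowest among detected members in both groups, with Ccl7 at 0.259 ± 0.197 in mTOR-/- and 2.50 ± 0.875 in WT. No other neighbours in these orders overlapped in range. Summed over all members, the level was 4568 to 5884 CPM in mTOR-/- and 4675 to 5857 CPM in WT, which overlapped.

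**Figure D3:**
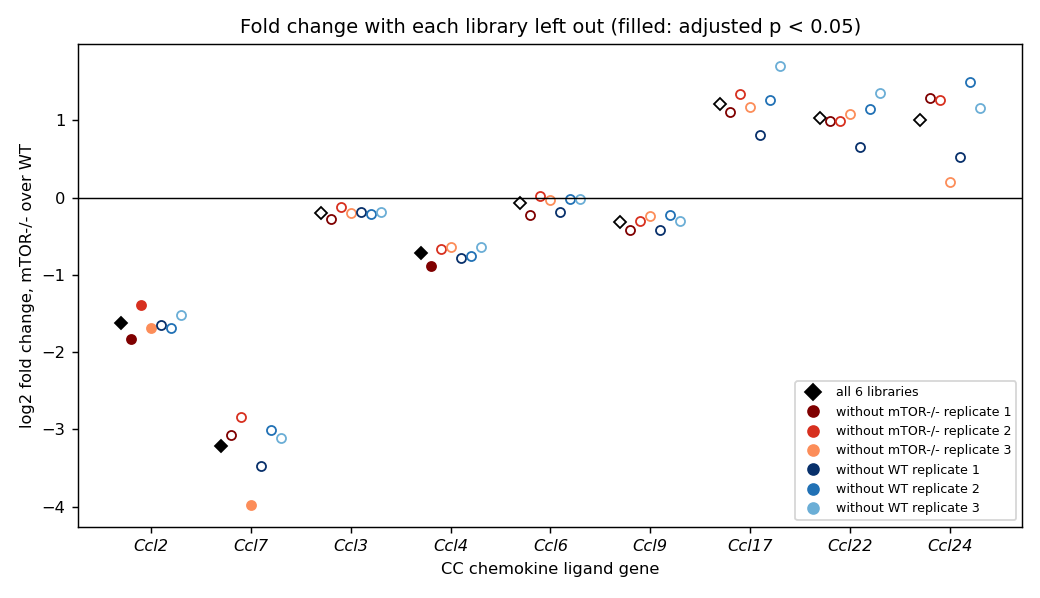
Log2 fold change of mTOR-/- over WT for each tested ligand with all 6 libraries (diamonds) and with each library left out in turn (circles), filled where the edgeR adjusted p was under 0.05. Ccl2, Ccl7 and Ccl4 stay below 0 throughout, and Ccl6 crosses 0. Of the circles, 3 of 6 are filled for Ccl2 and 1 of 6 each for Ccl7 and Ccl4.

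The directions of the called members held with each library left out, but their adjusted p-values did not. Ccl2 kept a log2 fold change between -1.83 and -1.39 and passed in 3 of 6 such fits, those without an mTOR-/- library, while the edgeR adjusted p was 0.0707, 0.0582 and 0.0944 without WT replicate 1, 2 and 3. Ccl7 ranged from -3.98 to -2.84 and passed in 1 of 6, without mTOR-/- replicate 3. Ccl4 ranged from -0.89 to -0.64 and passed the adjusted p in 1 of 6, without mTOR-/- replicate 1.

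Over the 6 libraries, the genes whose log2 CPM was most like that of Ccl2 among 9149 genes of at least 10 CPM were Pop7 (Pearson r = 0.998), Lrp1 (0.996) and Imp3 (0.996). Those most like Ccl7 included Hspa13 (0.987) and Atf3 (0.986). Ccl2 correlated at 0.937 with Ccl7 and at 0.939 with Ccl4, which ranked 164 and 156 among the 12536 other tested genes. These are descriptions over 6 libraries that share the group difference.

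Related gene lists were set beside the members. Of 10 other CC ligands 2 were tested and neither passed: Ccl5, a T cell chemoattractant, had 438, 536 and 486 counts in mTOR-/- and 284, 503 and 517 in WT, and Ccl25 had a log2 fold change of 0.47. Of 14 CC receptors 7 were tested and 1 was called, Ccr7, which guides dendritic cells to lymph nodes, with 715, 746 and 787 counts in mTOR-/- and 191, 431 and 430 in WT (log2 fold change 1.26, edgeR adjusted p = 0.0314). Of 17 CXC, CX3C and XC ligands 9 were tested and 1 was called, Cxcl10, an interferon-inducible T cell chemoattractant, with 61, 76 and 115 counts in mTOR-/- and 17, 24 and 6 in WT (log2 fold change 2.57, edgeR adjusted p = 0.0243).

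Genes of pathways that are known to act on CC ligand transcription were set beside all genes tested. The lists were chosen with earlier results of these data known, so the comparison is a description. The background was 2.18% of all genes tested passing the adjusted p as higher and 1.87% as lower. Of all genes tested, 14.5% were higher and 13.9% lower without overlap of the groups. The list of NF-kB and AP-1 inducers held 23 genes, all tested, among them the NF-kB inhibitor gene Nfkbia. In this list 4 genes passed the adjusted p as higher and 0 as lower, with Il1b called (log2 fold change 1.29, edgeR adjusted p = 0.0290). The others that passed were Nfkbia (0.78), Nfkbiz (0.77) and Jun (0.66). The list median was 0.12, and 9 genes were higher and 1 lower without overlap of the groups. Of 16 genes of the IL-4, STAT6 and IRF4 axis, 4 passed as higher and 0 as lower, with a list median of -0.03. The alternative activation markers Retnla (1.37) and Clec10a (1.48) were called, and Irf4 (0.39) and Chil3 (0.50) passed the adjusted p only. In that list 9 of 16 genes lay below 0, and 5 were higher and 3 lower without overlap. The cytokine gene Il4 had 17, 19 and 50 counts in mTOR-/- and 73, 94 and 74 in WT (log2 fold change -1.33, edgeR adjusted p = 0.133), Il13 had a log2 fold change of -1.98 (adjusted p = 0.245) and Mrc1, another alternative activation marker, one of -0.85 (adjusted p = 0.455), and none of these 3 passed. Of 14 genes of GM-CSF and IL-6 receptor signalling, 2 passed as higher and 0 as lower, with a list median of 0.03. The receptor gene Il6ra (1.01) was called, and Csf2ra (0.84) passed the adjusted p only. In this list 4 genes were higher and 3 lower without overlap. The median over all genes tested was 0.005.

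**Figure D4:**
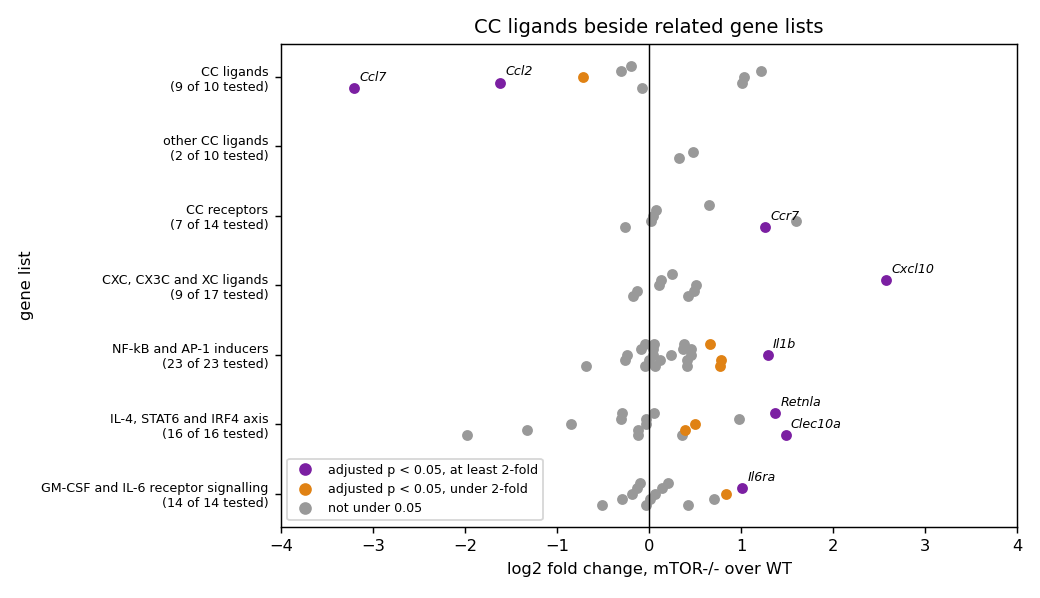
Log2 fold change of mTOR-/- over WT for each tested gene of the CC ligands and 6 related lists, 1 point per gene, with called genes named. The called CC ligands lie to the left of 0 and the called genes of the other lists to the right.

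**Figure D5:**
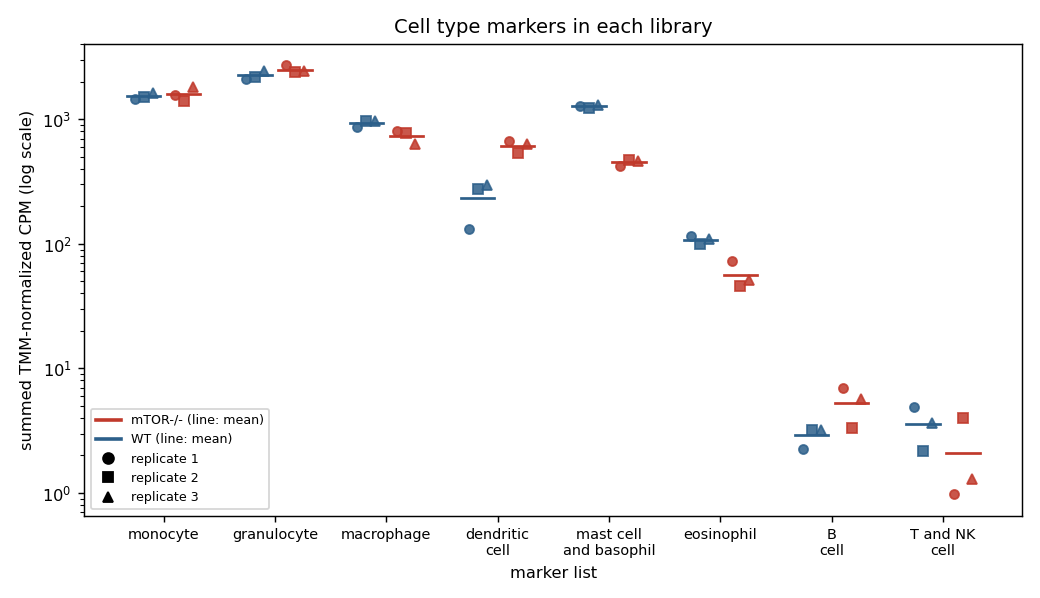
Summed TMM-normalized CPM of 8 cell type marker lists on a log scale, 1 point per library with a line at each group's mean of 3 libraries. Dendritic cell markers are higher in mTOR-/- with WT replicate 1 (circle) lowest, mast cell and basophil markers are lower, and B cell and T and NK cell markers stay under 7 CPM in every library.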

How the data were processed

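RNA of M-MDSCs was sequenced in 6 libraries, 3 labelled mTOR-/- and 3 labelled WT. The authors deposited whole-number read counts per gene and FPKM values. The paper's methods name Bowtie2, mm10 and HTSeq, whereas the submitters' processing notes list HISAT2 2.0.4, StringTie 1.3.0 and the builds GRCm38.p4 and mm9 with no roles, so the origin of the counts is unsure. Gene positions in the table equal those of GENCODE M21 on GRCm38 for 9 of the 10 members. The deposited FPKM values equal counts scaled by library total and 1 length per gene within 0.1% for all 17309 genes with a value. The length so implied for Ccl2, 1909 bases, exceeds its span of 1883 bases, so levels between genes use coding transcript lengths of GENCODE M21. Columns of the authors' own comparison of the groups were not used.

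The tools were edgeR 4.0.16, DESeq2 1.42.0 and limma 3.58.1, run in R 4.3.3. The filterByExpr step (minimum count 10, minimum total 15) left 12537 of 34745 genes. After TMM normalization, mTOR-/- was tested against WT by the quasi-likelihood method of edgeR, two-sided, with Benjamini-Hochberg adjustment over all tested genes. Called genes changed at least 2-fold with an adjusted p under 0.05. The biological coefficient of variation was 19%. On simulated data with 200 genes changed 4-fold among 12537, 89% were recovered and 1.66% of 181 calls were false, and with no gene changed 0 were called. These counts were drawn from the model that edgeR itself fits, and changes smaller than 4-fold were not simulated. An exact permutation test of 3 against 3 libraries cannot go below p = 0.1.

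Alternatives were DESeq2, RLE and upper-quartile normalization, no filter, at least 10 counts in every library, no fold threshold, each library left out, the replicate number as a block, and limma on log2(FPKM + 0.1). The members and gene lists were chosen with earlier results of these data known. Named genes are all members, Mtor and Lyz2, the receptors Ccr1, Ccr2, Ccr3 and Ccr4, the called genes of each other list (at most 6), and for each called member the 3 genes most correlated with it. Some genes that the rule names are not reported here. Sort markers, cell markers, other genes with an adjusted p under 0.05 and genes overlapping a member are named outside this rule, as are Ccl5, Ccl25, Il4, Il13 and Mrc1, the last 3 chosen after their values were seen. Intervals of pooled counts cover counting error only.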

Additional observations from a re-analysis of the deposited data

How the results depend on the processing

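With each library left out, the count of CC ligands called lower ranged from 0 to 2, and it was 0 without any single WT library. It was 1 with at least 10 counts in every library, where Ccl7 could not be fitted, and 1 with the replicate block, where Ccl7 had an adjusted p of 0.0992 (log2 fold change -3.26), Ccl2 one of 0.0296 and Ccl4 one of 0.0632. Replicate numbers did not pair the libraries, with correlations of -0.08, -0.03 and -0.06 between libraries of the same number. DESeq2 called 1 CC ligand higher, Ccl17. Over all genes, 82 were called lower and 130 higher, DESeq2 called 140 and 216, and without the fold threshold the counts were 234 and 273. With a library left out they ranged from 51 to 97 lower and from 61 to 132 higher. The Ccl6 log2 fold change ranged from -0.230 to 0.021 with a library left out, turning positive without mTOR-/- replicate 2, and no other member changed sign under any alternative fitted. The causes were not tested. Ccl7, Ccl12, Ccl24 and Ccr3 are limited by depth.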
